A study of Mus musculus with 19 samples.

Results

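Spliceosomal small nuclear RNA (snRNA) fragments were examined in mouse sperm. Annotated snRNA genes were kept when at least 10 sense reads, with at most 1 mismatch and shared reads divided equally, were found in at least 4 of the 19 libraries. This rule kept 296 of 1383 annotated snRNA genes, with 227 distinct sequences: 63 U1, 33 U2, 5 U4, 9 U5, 173 U6, 2 U11, 5 U12, 1 U4atac, 3 U6atac, 1 U7 and 1 unclassified gene. The members were thus selected on their read counts in these libraries, over all groups together, and the levels that follow are first of all a description. Genes just inside it, with 10 reads in exactly 4 libraries, numbered 13 and had a median level of 0.134 RPM (reads per 1000000 reads of the library). Genes just outside it, with 10 reads in exactly 3 libraries, numbered 8 and had a median level of 0.139 RPM. Of the 296 genes, 100 reached 10 reads in at least one library of both methods and 196 reached it only in traditional RNA-seq, among them all 173 U6 genes. Copies of one snRNA share most of their reads, so families rather than genes are the main unit below, each summed over all of its annotated genes.

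All libraries came from sperm of wild-type C57BL/6J males that were gavaged for 4 weeks from 8 weeks of age. Exposed males received dicyclohexyl phthalate (DCHP, a plasticizer) at 10 mg/kg per day, and control males received the corn oil vehicle. RNA of 15 to 50 nt was sequenced in 2 ways. Traditional RNA-seq ligated adapters to the RNA as isolated (5 control and 5 DCHP libraries). PANDORA-seq first treated the RNA with AlkB, which removes methyl groups that block reverse transcription, and with T4PNK, which converts phosphate ends that block ligation (4 control and 5 DCHP libraries). The study calls the libraries biological replicates of mice, and no source used here says whether sperm of several males was pooled. Libraries are named below by method, group and replicate number.

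The libraries held 21588335 to 56506344 reads. Matches to miRNA hairpins took 1.06% to 1.40% of PANDORA-seq reads and 4.55% to 16.9% of traditional reads, and rRNA took 26.0% to 36.7% and 5.37% to 7.11%. The 3 sperm and late germ cell miRNAs (Mir34b, Mir34c, Mir449a) summed to 87.1 to 462 RPM in traditional libraries and to 0.902 to 6.46 RPM in PANDORA-seq libraries. Markers of other cells were present in traditional libraries: epididymal epithelium (5 of 5 genes matched) at 553 to 4430.0 RPM, smooth muscle (2 of 2) at 1366 to 6928 RPM, red blood cells (3 of 3) at 19.8 to 136 RPM, the myeloid Mir223 at 1.02 to 5.29 RPM and the liver Mir122 at 783 to 70134 RPM. In PANDORA-seq libraries the same lists were at 2.63 to 42.8 RPM (epididymal epithelium), 2.60 to 112 RPM (smooth muscle), 0.327 to 1.27 RPM (red blood cells), 0 to 0.136 RPM (Mir223) and 3.74 to 129 RPM (Mir122). The study's methods strained the sperm and treated it with somatic cell lysis buffer. The part of other cell types in the snRNA values was not tested, and fewer cells of a type cannot be told apart from less RNA per cell in such bulk samples.

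snRNAs are the RNA cores of the particles that splice pre-mRNA. U1 pairs with the 5′ splice site, U2 with the branch point, and U4 carries U6 to the spliceosome in a paired complex with U5, after which U6 takes the place of U1 at the 5′ splice site. U11, U12, U4atac and U6atac do the corresponding work for a rare class of introns, and U7 acts in histone mRNA 3′ end processing. Most of these RNAs carry a methylated guanosine cap and bind a ring of Sm proteins at a short uridine-rich site, whereas U6 and U6atac carry a different cap and bind LSm proteins at their 3′ end.

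Fragments of 7 families are shown here with their ends. For U2, U4, U5, U11, U12 and U4atac they are among those with the most reads. The leading U1 and U6 fragments are described without sequence, and the U1 sequence shown, at 0.563 to 4.64 RPM in the group means, is given for its Sm site. Positions count from 1 at the 5′ end of one reference copy per family in GENCODE M21 (GRCm38): Rnu1a1 for U1, Rnu2-10 for U2, Gm24265 for U4, Rnu5g for U5, Rnu6 for U6, Rnu11, Rnu12, and Gm22710 for U4atac. The sequences in the following list were read from the libraries and match these copies exactly. Capitals mark the Sm-site letters (ATTTG with 3 to 6 T), except that in the U2 fragment of bases 17 to 46 they mark GTAGTA, the stretch that pairs with the branch point, and in the U5 fragment of bases 15 to 45 GCCTTTTAC, the loop that contacts exon ends.
U1 125 to 163: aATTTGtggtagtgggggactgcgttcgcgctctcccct
U2 93 to 121: aaatggATTTTTGgaagtaggagttggaa
U2 17 to 46: ttggctaagatcaagtGTAGTAtctgttct
U2 93 to 112: aaatggATTTTTGgaagtag
U4 103 to 133: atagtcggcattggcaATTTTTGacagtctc
U4 103 to 120: atagtcggcattggcaat
U4 77 to 98: aataccccgccgtgacgacttg
U5 15 to 45: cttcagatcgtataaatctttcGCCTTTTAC
U5 1 to 17: atactctggtttctctt
U11 85 to 111: ataATTTTTTGgtaattgggcagctgg
U12 68 to 87: gagaagaATTTTTGagcggg
U12 70 to 87: gaagaATTTTTGagcggg
U4atac 88 to 125: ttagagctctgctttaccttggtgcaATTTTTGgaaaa
The Sm letters were searched on the sense strand only. They occur in 29.4% of the 1383 annotated snRNA genes, 11.9% of 1507 snoRNA genes and 10.2% of 2198 miRNA hairpins.

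snRNA reads made up 0.0646% to 0.202% of the reads in PANDORA-seq libraries and 0.144% to 0.274% in traditional libraries. Reads matching the opposite strand of the same genes came to 0.372% to 2.04% of the sense reads. U1 and U2 together dominated. Of all snRNA reads in PANDORA-seq control libraries, U2 made up 46.0% ± 8.03 (SD, n = 4) and U1 37.9% ± 5.46. In traditional control libraries, U2 made up 57.3% ± 7.55 (SD, n = 5) and U1 14.9% ± 2.21. The ratio of these families within a library does not depend on how libraries are scaled: 0.861 ± 0.293 U1 reads per U2 read in PANDORA-seq control and 1.15 ± 0.591 in PANDORA-seq DCHP libraries, against 0.266 ± 0.0670 and 0.330 ± 0.193 in the traditional libraries.

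**Figure D1:**
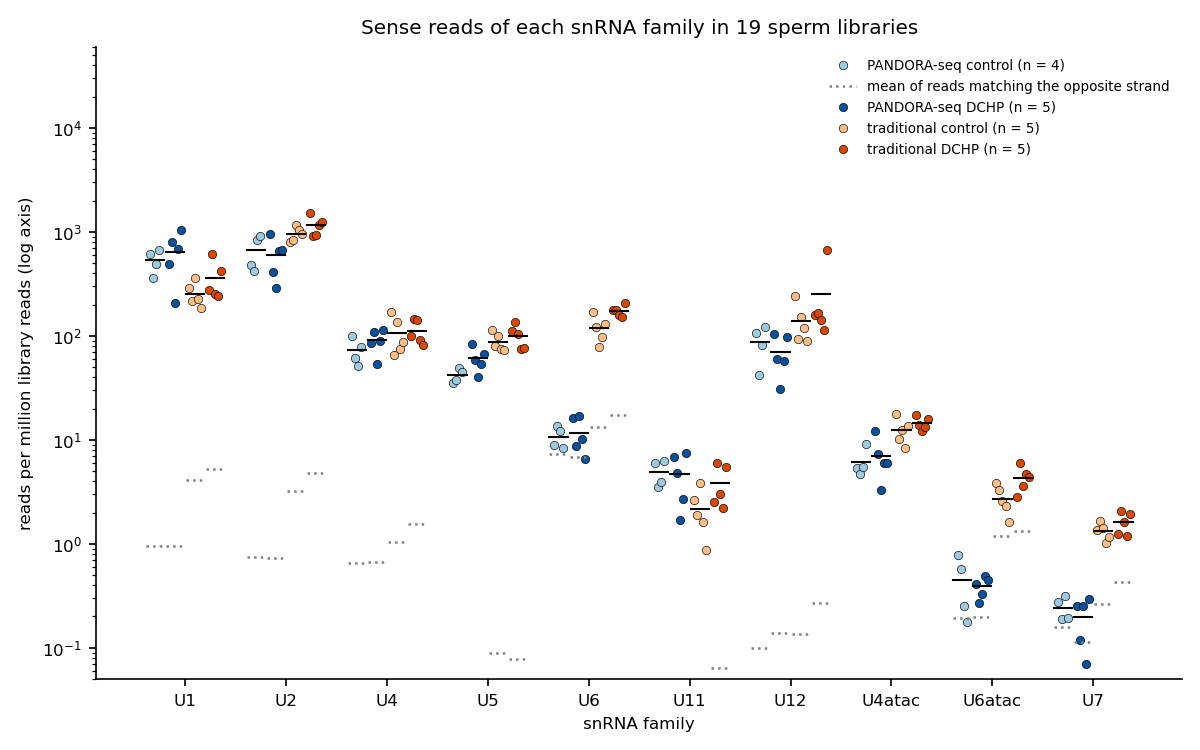
Level (RPM) of 10 snRNA families in the 19 libraries on a log axis, with points for libraries, bars for group means and dotted lines for the mean of reads matching the opposite strand (drawn where above 0.05 RPM). U6 sits between 78.9 and 209 RPM in traditional libraries and between 6.61 and 16.9 RPM in PANDORA-seq libraries, where its opposite-strand reads are close to it.

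U1 is the snRNP RNA that first recognises the 5′ splice site. Its level was 616, 359, 489 and 673 RPM in the 4 PANDORA-seq control libraries and 486, 792, 207, 689 and 1045 RPM in the 5 PANDORA-seq DCHP libraries. Traditional libraries held 287, 215, 360.1, 228 and 184 RPM (control) and 275, 607, 253, 239 and 417 RPM (DCHP). The control libraries of the 2 methods almost separated, with the lowest PANDORA-seq value just under the highest traditional one, while the DCHP libraries overlapped widely. The RPM level was higher in PANDORA-seq by 1.07 ± 0.33 (log2 ± SE; edgeR quasi-likelihood test, adjusted p = 0.0132) in control and by 0.85 ± 0.43 (adjusted p = 0.0888) in DCHP libraries, the latter under the required 2-fold. The control difference was no longer over 2-fold with the replicate number as a block (0.96), without PANDORA-seq control replicate 1 (0.99) or 4 (0.94), or without traditional control replicate 5 (0.97). The DCHP difference passed without PANDORA-seq DCHP replicate 3 (1.07) or traditional DCHP replicate 2 (1.12), with exact matches (1.01), with reads of at least 20 nt (1.12) and with TMM factors (2.03).

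The U1 fragments differed more than the total. In PANDORA-seq libraries, reads that ended at base 100 made up 40.6%, 48.5%, 56.2% and 54.4% of U1 reads on Rnu1a1 in control and 46.0% to 58.0% in DCHP libraries. In traditional libraries they made up 5.35% to 20.4% in control and 7.49% to 16.1% in DCHP libraries. No traditional library reached the lowest PANDORA-seq library. A pair of fragments accounted for most of this end, starting at bases 70 and 73. The 31-nt fragment of bases 70 to 100 was at 118 ± 28.6 and 134 ± 76.4 RPM in PANDORA-seq control and DCHP libraries and at 11.8 ± 9.63 and 10.3 ± 10.9 RPM in traditional libraries. The 28-nt fragment of bases 73 to 100 was at 94.5 ± 39.9 and 126 ± 86.8 RPM against 9.28 ± 4.43 and 8.52 ± 3.27 RPM. Both match 13 U1 genes equally well. Traditional U1 reads covered the Sm site more often: 28.0% to 40.4% of U1 reads on Rnu1a1 spanned it in control and 33.4% to 61.3% in DCHP libraries, against 14.5% to 28.3% and 11.6% to 21.6% in PANDORA-seq. An end 15 bases past the Sm letters made up 10.6% to 20.2% of U1 reads on Rnu1a1 in traditional control and 11.7% to 21.6% in traditional DCHP libraries, against 0.871% to 1.65% and 0.906% to 1.44% in PANDORA-seq, without overlap.

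The ACTTACCTG stretch that pairs with the 5′ splice site lies at bases 3 to 11 of U1. Reads starting within the first 3 bases made up 0% to 0.0916% of U1 reads on Rnu1a1 in PANDORA-seq libraries and 0.00618% to 0.279% in traditional libraries. Reads starting at base 7, inside the stretch, made up 0.397% to 7.88% of U1 reads on Rnu1a1, and the fragment of bases 7 to 30 was at 3.77 to 8.02 and 4.20 to 7.84 RPM in PANDORA-seq and 0.633 to 9.93 and 1.39 to 33.4 RPM in traditional libraries, with overlap. The difference in starts within the first 3 bases passed in DCHP libraries, at −0.18 ± 0.06 percentage points (limma, adjusted p = 0.0385), but not under the replicate block (adjusted p = 0.133) or with exact matches (adjusted p = 0.1398). Reads reaching the last 3 bases made up 0.223% to 1.03% in the 9 PANDORA-seq libraries and 2.85% to 21.9% in the 10 traditional ones, so the methods did not overlap. This 3′ end share was lower in PANDORA-seq by 7.87 ± 2.46 percentage points in DCHP libraries (limma, adjusted p = 0.0462), and by 8.11 ± 3.74 points in control libraries, which did not pass by limma (adjusted p = 0.169) but passed by the exact permutation test (adjusted p = 0.0770). Traditional control replicate 2 was the highest at 21.9%, and without it the control difference was −4.81 points and passed (adjusted p = 0.0210). U1 genes of the b type, an embryonic form in mouse, took 1.60% ± 0.704 and 1.58% ± 0.349 of the reads that tell them from the a type in PANDORA-seq, and 6.11% ± 1.52 and 8.01% ± 2.23 in traditional libraries. The reads that tell them apart were themselves 72.2% ± 6.46 and 75.7% ± 5.21 of U1 reads in PANDORA-seq, and 39.1% ± 6.58 and 31.0% ± 4.74 in traditional libraries. The U1 genes with the most reads were Gm22513 (chromosome 12, 54696782 to 54696945, + strand) and Gm25679 (chromosome 12, 54719163 to 54719326, − strand), with divided levels of 43.0 and 35.5 RPM in PANDORA-seq control libraries.

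**Figure D2:**
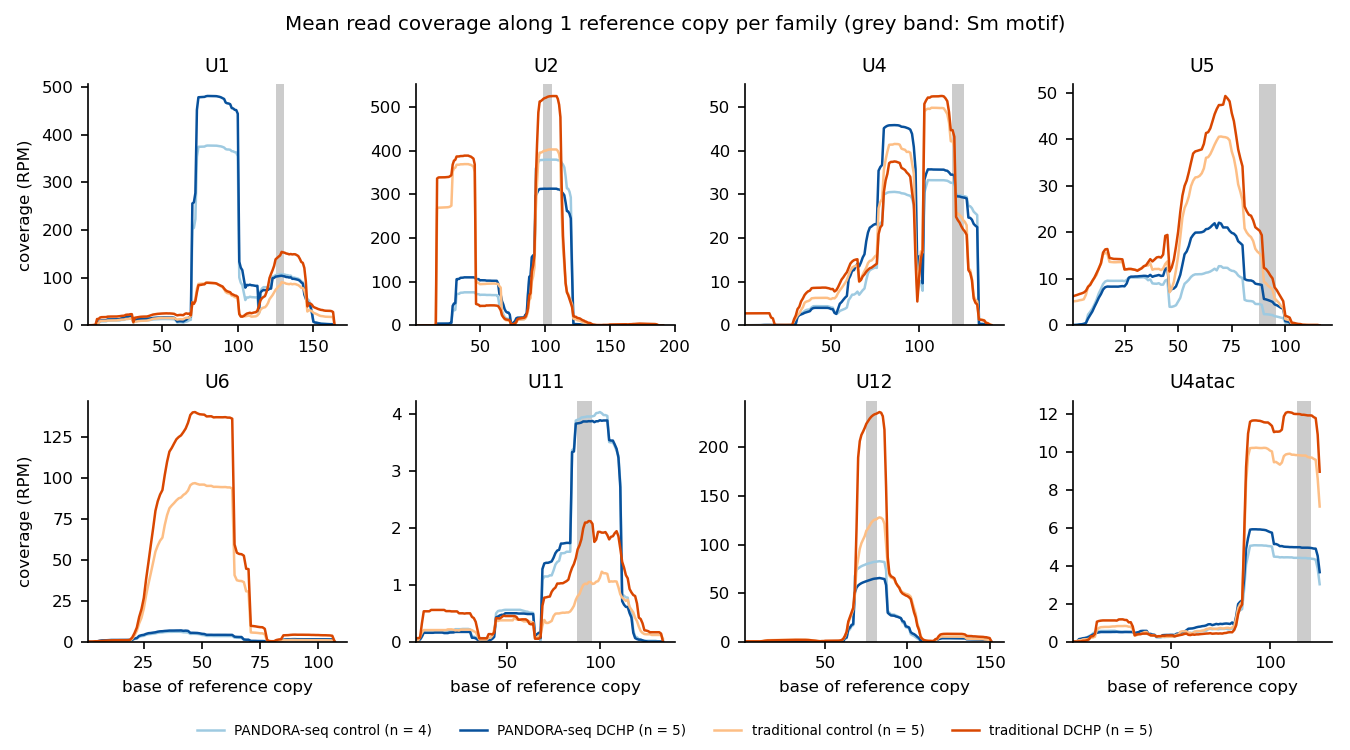
Mean read coverage in RPM along one reference copy per family, by group, with the Sm letters in grey. U1 reads of PANDORA-seq libraries pile up over bases 70 to 100, U2 reads of traditional libraries have a high block over bases 17 to 46, and U6 reads of traditional libraries drop sharply after base 63.

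U2 pairs with the branch point of the intron. Its level was 485, 421, 829.6 and 919.6 RPM in PANDORA-seq control and 961, 408, 291, 654 and 676 RPM in PANDORA-seq DCHP libraries. Traditional libraries held 803, 845, 1169, 1039 and 959 RPM (control) and 1526, 922, 931, 1163 and 1248 RPM (DCHP). The groups overlapped, and the difference of −0.54 ± 0.34 (log2, PANDORA-seq over traditional) in control libraries did not pass (edgeR, adjusted p = 0.176). In DCHP libraries it was −0.95 ± 0.36 (adjusted p = 0.0255), under the required 2-fold. It passed with the replicate block (−1.05), without PANDORA-seq DCHP replicate 1 (−1.19), without traditional DCHP replicate 2 or 3 (−1.02 each) and, just over 2-fold, without PANDORA-seq DCHP replicate 5. Both differences turned positive with total miRNA reads, TMM factors or DESeq2 size factors.

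The U2 fragments differed in their ends between methods. The 30-nt fragment of bases 17 to 46, which holds the branch point stretch, was at 109, 268, 294, 245 and 213 RPM in traditional control libraries and at 212 to 358 RPM in traditional DCHP libraries. It was at 3.15, 4.20, 2.78 and 4.58 RPM in PANDORA-seq control libraries and at 2.77 to 4.15 RPM in PANDORA-seq DCHP libraries. No values of the methods overlapped. Reads of any length spanning the branch point stretch made up 16.3% ± 3.94 (at most 19.7%) and 14.8% to 51.8% of U2 reads on Rnu2-10 in PANDORA-seq control and DCHP libraries, against 31.9% to 63.6% and 33.2% to 58.0% in traditional libraries, so the control libraries did not overlap and the DCHP libraries did. Starts at base 17 made up 20.6% to 54.0% of traditional U2 reads on Rnu2-10 and 0.446% to 1.56% of PANDORA-seq reads. PANDORA-seq reads started instead at base 93 (41.3% ± 10.5 in control and 29.6% ± 6.75 in DCHP libraries) and ended at base 120 or 121. The 29-nt fragment of bases 93 to 121, which holds the Sm site in its 5′ part, was at 78.9 ± 55.3 and 56.5 ± 34.5 RPM in PANDORA-seq and at 14.3 ± 7.83 and 7.22 ± 3.09 RPM in traditional libraries.

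A shorter fragment with the same start behaved the other way. The 20-nt fragment of bases 93 to 112 was at 31.5 ± 7.74 and 47.1 ± 24.3 RPM in traditional and at 2.50 ± 1.41 and 1.99 ± 1.39 RPM in PANDORA-seq libraries. Reads spanning the Sm letters made up 81.8% ± 4.40 and 69.1% ± 14.9 of U2 reads on Rnu2-10 in PANDORA-seq and 51.3% ± 11.3 and 54.6% ± 9.64 in traditional libraries. Within PANDORA-seq, DCHP replicate 3 was lowest at 45.2%. The cap end was nearly unread, with at most 0.0301% of U2 reads on Rnu2-10 starting within the first 3 bases in any library.

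U2 copies also differ by a base inside the leading PANDORA-seq fragment. Between bases 93 and 121, Rnu2-10 and Gm23472 differ by G17C, counted from 1 at the fragment's 5′ end, shown here in capitals in both versions.
Rnu2-10 type, 7 genes: aaatggatttttggaaGtaggagttggaa
Gm23472 type, 4 genes: aaatggatttttggaaCtaggagttggaa
Of all reads that match only one of these copies, Gm23472 took 32.3% ± 1.72 and 32.3% ± 1.96 in PANDORA-seq control and DCHP libraries and 26.9% ± 0.537 and 26.8% ± 1.86 in traditional libraries. Among single U2 genes, those with the smallest p between methods were Gm22958, Gm24840, Gm25007, Gm22451 and Gm23345. Their levels were lower in PANDORA-seq by 5.25 to 5.41 on the log2 scale in control and by 5.41 to 5.63 in DCHP libraries. They are no separate findings, because in traditional libraries 98.0% to 98.3% of their reads lay within bases 16 to 47, the region of the 17 to 46 fragment. Gm24950 (chromosome 11, 101641748 to 101641938, + strand) and Rnu2-10 (chromosome 11, 101658238 to 101658428, + strand), the U2 genes with the most reads, were at 62.9 RPM in PANDORA-seq control and 81.0 RPM in traditional control libraries, the same value for both.

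U4 keeps U6 inactive until the spliceosome is assembled. Its level was 51.3 to 98.9 RPM in PANDORA-seq control, 53.6 to 115 RPM in PANDORA-seq DCHP, 64.8 to 170.1 RPM in traditional control and 81.9 to 144 RPM in traditional DCHP libraries. The groups overlapped, and neither method difference passed (adjusted p = 0.206 and 0.378), with log2 values of −0.56 and −0.31 that turned positive with total miRNA reads, TMM factors or DESeq2 size factors. The reversed difference passed with total miRNA reads (1.69 in control, adjusted p = 0.00398, and 2.15 in DCHP libraries, adjusted p = 0.000187), and in DCHP libraries by DESeq2 (1.09, adjusted p = 0.000799). The start of the main fragment was shared and the end was not. Starts at base 103 made up 33.8% ± 5.20, 28.8% ± 4.84, 34.5% ± 7.63 and 33.7% ± 6.60 of U4 reads on Gm24265 in PANDORA-seq control, PANDORA-seq DCHP, traditional control and traditional DCHP libraries. Ends at base 133 made up 17.8% to 46.0% of PANDORA-seq and 1.14% to 8.17% of traditional reads, without overlap. Ends at base 120, inside the Sm letters, made up 4.05% ± 3.38 and 6.09% ± 2.74 in PANDORA-seq and 17.1% ± 8.99 and 18.6% ± 5.12 in traditional libraries.

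The 31-nt fragment of bases 103 to 133 was at 17.5 ± 6.71 and 16.0 ± 6.45 RPM in PANDORA-seq and at 2.54 ± 1.75 and 1.73 ± 1.48 RPM in traditional libraries. The 18-nt fragment of bases 103 to 120 was at 1.53 ± 1.17 and 2.53 ± 0.431 RPM against 10.3 ± 4.20 and 12.4 ± 4.40 RPM. Another U4 fragment, bases 77 to 98 in the 3′ part ahead of the Sm site, did not separate the methods: it was at 6.77 ± 0.525 and 8.91 ± 1.29 RPM in PANDORA-seq control and DCHP libraries and, with a wider spread, at 5.04 ± 5.15 and 3.16 ± 3.37 RPM in traditional ones. U4 reads came mostly from Gm24265 (chromosome 5, 115489459 to 115489599, + strand). Its neighbour Gm24407 (chromosome 5, 115490254 to 115490394, + strand) took 10.7% ± 2.73 and 9.63% ± 2.13 of the reads that tell them apart in PANDORA-seq and 15.8% ± 5.74 and 18.1% ± 4.51 in traditional libraries. The share of U4 reads on Gm24265 reaching the last 3 bases was small everywhere, and lower in PANDORA-seq by 0.31 ± 0.09 percentage points in DCHP libraries (limma, adjusted p = 0.0365). In control libraries it was lower by 0.45 ± 0.14 points (adjusted p = 0.0478), with an adjusted p of 0.137 under the replicate block and of 0.118 and 0.1275 without PANDORA-seq control replicate 3 or 4.

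**Figure D3:**
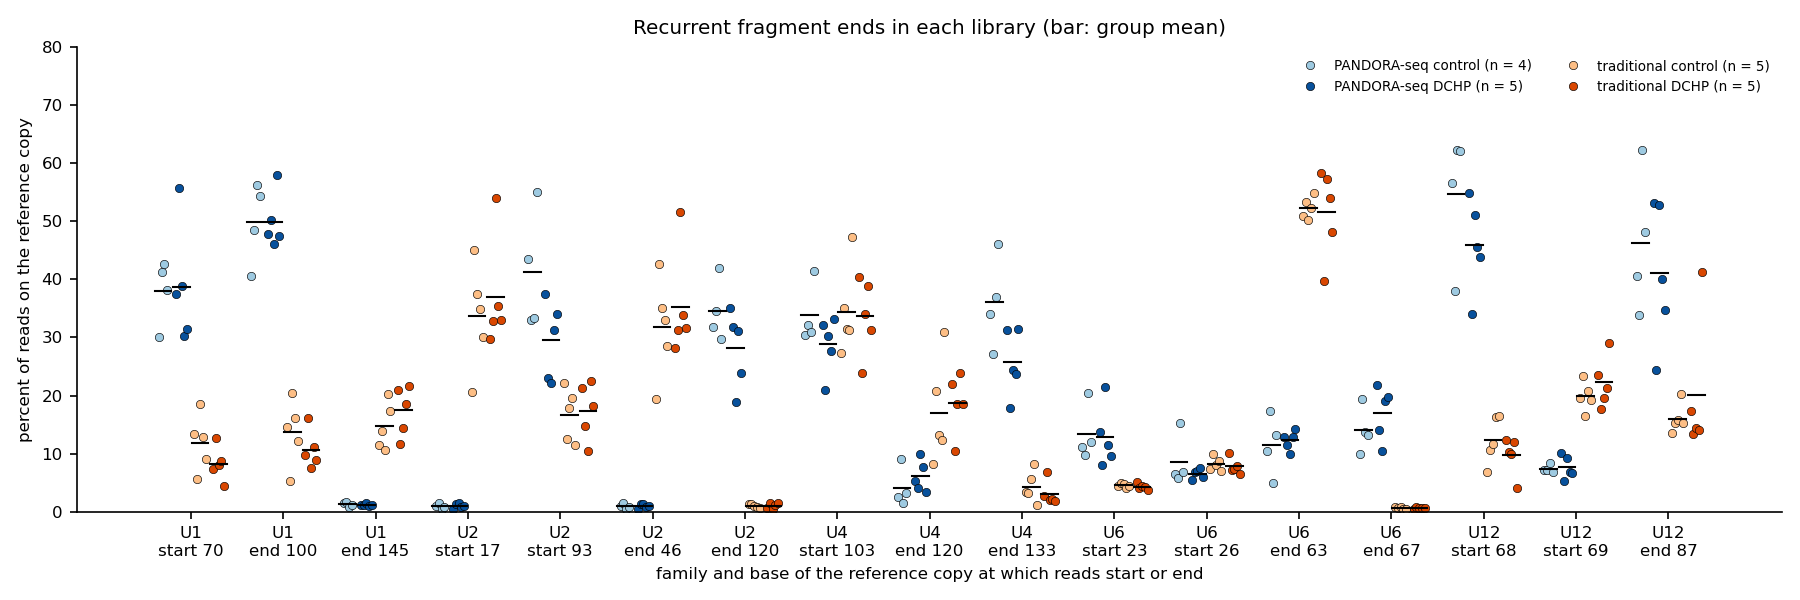
Share (percent) of reads on the reference copy that start or end at the commonest bases of either method for 5 families, one point per library and a bar at each group mean. U4 starts at base 103 are alike in the 4 groups, while U1 ends at 100, U2 starts at 17, U4 ends at 133 and U6 ends at 63 leave a gap between the methods.

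U5 holds the 2 exons in place through its loop. Its level was 34.9, 37.9, 49.1 and 44.8 RPM in PANDORA-seq control and 83.1, 58.0, 40.5, 53.8 and 67.6 RPM in PANDORA-seq DCHP libraries. Traditional libraries held 114, 79.3, 99.1, 75.5 and 73.4 RPM (control) and 74.1 to 136 RPM (DCHP). Gm25313 and Rnu5g had the most U5 reads, with 6.82 and 6.85 RPM in PANDORA-seq control and 20.6 and 19.4 RPM in traditional control libraries. All control values of PANDORA-seq lay below those of traditional RNA-seq, a difference of −1.08 ± 0.30 (log2; edgeR, adjusted p = 0.00709), and in DCHP libraries the difference was −0.73 ± 0.30 (adjusted p = 0.0415), under 2-fold. The control difference was under 2-fold with exact matches (−0.92), with reads of at least 20 nt (−0.95) and without traditional control replicate 1 (−0.97), and near 0 with TMM (−0.15) or DESeq2 factors (−0.13). Both differences turned positive with total miRNA reads, and the DCHP difference also with TMM or DESeq2 factors.

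U5 fragments were spread over many lengths: no single length held more than 8.01% of U5 reads in any group mean. Reads spanning the exon-contacting loop (bases 37 to 45) made up 35.9% ± 5.35 and 30.6% ± 4.32 of U5 reads on Rnu5g in PANDORA-seq and 18.4% ± 3.23 and 20.3% ± 6.02 in traditional libraries. Ends at base 45, the last base of the loop, made up 25.3% ± 5.29 and 15.5% ± 5.29 in PANDORA-seq and 11.2% ± 1.68 and 12.2% ± 4.16 in traditional libraries. The Sm site was seldom spanned, by 8.53% ± 1.63, 13.6% ± 2.93, 10.1% ± 2.69 and 12.1% ± 3.88 of U5 reads on Rnu5g in the 4 groups. Reads that match only other U5 copies are outside these shares. With U6atac, U7 and the unclassified gene left aside, U5 was the family whose capped end was best represented in traditional libraries. There 2.56% to 24.1% of reads on Rnu5g started within the first 3 bases, against 0.228% to 1.05% in PANDORA-seq. That difference was −8.91 ± 3.68 percentage points in DCHP libraries (limma, adjusted p = 0.0943), with an adjusted p of 0.132 under the replicate block and of 0.135 to 0.158 without any 1 of PANDORA-seq DCHP replicates 1 to 5 and traditional DCHP replicate 5. It was −7.57 ± 3.58 in control libraries (adjusted p = 0.160). A pair of U5 copies that differ by C19T in bases 53 to 80, counted from the fragment's 5′ end, were read side by side.
Rnu5g type, 3 genes: ttccgtggagaggaacaaCtctgagtct
Gm24871 type, 2 genes: ttccgtggagaggaacaaTtctgagtct
Gm24871 took 50.4% ± 6.67 and 44.8% ± 4.40 of the reads that match only one of the 2 copies in PANDORA-seq and 32.6% ± 7.26 and 29.1% ± 4.84 in traditional libraries.

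U6 forms the catalytic centre of the spliceosome together with U2. With total reads as library size it was the family with the widest difference between methods. With total miRNA reads its difference was −1.15 in control and −1.41 in DCHP libraries, smaller than the 3.37 and 3.32 of U1. Its level was 169, 122, 78.9, 97.6 and 129 RPM in traditional control and 177, 178, 159, 153 and 209 RPM in traditional DCHP libraries. PANDORA-seq libraries held 8.91, 13.5, 12.3 and 8.31 RPM (control) and 16.1, 8.63, 16.9, 10.2 and 6.61 RPM (DCHP). Reads on the opposite strand came to 7.31 ± 2.13 and 6.88 ± 1.45 RPM in PANDORA-seq and to 13.4 ± 3.78 and 17.2 ± 1.52 RPM in traditional libraries, so over all lengths the PANDORA-seq U6 values were close to the opposite-strand ones. At 20 nt and longer the sense level was 8.45 ± 2.29 and 9.38 ± 3.73 RPM in PANDORA-seq and 109 ± 33.7 and 159 ± 21.8 RPM in traditional libraries, with opposite-strand levels of 1.06 to 3.01 RPM in PANDORA-seq and 0.147 to 0.866 RPM in traditional libraries.

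U6 was lower in PANDORA-seq by 3.47 ± 0.37 (log2 ± SE; edgeR, adjusted p = 8.09e-06) in control and by 3.91 ± 0.36 (adjusted p = 5.08e-07) in DCHP libraries. The median of all 1228 features tested was itself −1.61 and −2.06 on this scale. Within a library, U6 reads per 100 U1 reads were 1.45, 3.76, 2.51 and 1.24 in PANDORA-seq control and 0.632 to 8.16 in PANDORA-seq DCHP libraries, against 21.9 to 69.8 in traditional control and 29.3 to 64.2 in traditional DCHP libraries. Per 100 U2 reads, U6 had 1.85 ± 0.975 and 2.43 ± 1.93 reads in PANDORA-seq and 13.0 ± 5.45 and 15.6 ± 3.14 in traditional libraries. In single genes, all 173 U6 genes were lower in PANDORA-seq in both exposures, but they reached the rule only through traditional libraries and so had to differ. The U6 genes with the smallest p were Gm24448 (−4.43 and −4.82) and Gm25327 (−4.41 and −4.57), and those with the most reads, Gm23402 and Gm24873, were at only 0.736 and 0.735 RPM in traditional control libraries, since reads are divided over many copies.

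The U6 reads of traditional libraries had one end in common. Reads ending at base 63 made up 50.8%, 53.3%, 50.3%, 52.3% and 54.8% of U6 reads on Rnu6 in control and 39.8% to 58.2% in DCHP libraries, with starts spread over bases upstream. In PANDORA-seq libraries the share was 4.91% to 17.3%. The 38-nt fragment of bases 26 to 63, which matches 141 U6 genes, was at 5.41 ± 1.32 and 7.55 ± 1.64 RPM in traditional and at 0.141 ± 0.0652 and 0.144 ± 0.0942 RPM in PANDORA-seq libraries. Reads spanning ACAGAGA (bases 41 to 47), the box that pairs with the 5′ splice site, made up 85.3% ± 1.72 and 82.0% ± 4.14 in traditional and 51.3% ± 6.79 and 52.2% ± 6.44 in PANDORA-seq libraries.

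The 3′ end of U6, which in the mature RNA closes in a cyclic phosphate, was the one terminus with a larger share in PANDORA-seq. Reads reaching the last 3 bases made up 18.1%, 12.1%, 19.1% and 14.4% in PANDORA-seq control and 16.4%, 12.7%, 18.5%, 9.29% and 10.1% in PANDORA-seq DCHP libraries. Traditional libraries had 0.253% to 1.68% in control libraries and 0.421%, 9.46%, 0.835%, 0.268% and 1.34% in DCHP libraries, where replicate 2 stood apart. The difference was 15.1 ± 1.41 percentage points in control (limma, adjusted p = 0.000539) and 10.9 ± 2.43 in DCHP libraries (adjusted p = 0.0109). In RPM, fragments with this end overlapped between methods, at 1.03 to 1.71 (control) and 0.521 to 2.77 RPM (DCHP) in PANDORA-seq and 0.496 to 1.27 and 0.591 to 12.9 RPM in traditional libraries. Their terminal T run averaged 3.97 ± 0.0137 and 3.99 ± 0.0205 bases in PANDORA-seq and 3.65 ± 0.581 and 3.64 ± 0.246 bases in traditional libraries, on 12 to 279 reads a library.

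Among the minor spliceosome RNAs, U12, which pairs with the branch point of rare introns, was the most read. Its level was 107, 42.3, 82.5 and 121 RPM in PANDORA-seq control and 30.8 to 104 RPM in PANDORA-seq DCHP libraries. Traditional libraries held 242, 93.3, 150.4, 119 and 90.1 RPM (control) and 159, 164, 141, 115 and 676 RPM (DCHP). Traditional DCHP replicate 5 stood far above the rest. In that library 81.2% of U12 reads were 15 to 19 nt long, against a median of 34.7% over its group, and its U12 fragment of bases 70 to 87 was at 127 RPM against at most 4.67 RPM in traditional control libraries. The same library was the highest of its group for the sperm (462 RPM), epididymal (4430.0 RPM, group median 1132 RPM), smooth muscle, red blood cell and myeloid markers, whose part in the U12 value was not tested.

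U12 was lower in PANDORA-seq by 1.84 ± 0.54 (log2; edgeR, adjusted p = 0.00636) in DCHP libraries, while −0.66 ± 0.42 in control libraries did not pass (adjusted p = 0.179). Without traditional DCHP replicate 5 the DCHP difference was −1.05 and still passed. It did not pass with reads of at least 20 nt (−0.85, under 2-fold), with TMM (−0.46, adjusted p = 0.347) or with DESeq2 (−0.31, adjusted p = 0.535). Both differences turned positive with total miRNA reads, and the control one also with TMM or DESeq2 factors. Nearly all U12 reads on Rnu12 lay on the Sm site in both methods, 84.3% to 90.0% in the group means. The methods chose ends a base or 2 apart. Starts at base 68 made up 34.1% to 62.2% of PANDORA-seq reads and 4.12% to 16.5% of traditional reads, which started more often at base 69 (19.9% ± 2.51 and 22.2% ± 4.36 against 7.43% ± 0.693 and 7.65% ± 1.96). The 20-nt fragment of bases 68 to 87 was at 33.4 ± 16.5 and 21.4 ± 12.6 RPM in PANDORA-seq and at 4.26 ± 1.64 and 4.29 ± 1.37 RPM in traditional libraries.

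U11, which recognises the 5′ splice site of the same introns, was low, at 4.92 ± 1.36 and 4.71 ± 2.51 RPM in PANDORA-seq and 2.17 ± 1.12 and 3.84 ± 1.76 RPM in traditional libraries. It was higher in PANDORA-seq by 1.17 ± 0.40 (log2; edgeR, adjusted p = 0.0203) in control libraries, or by 0.98, under 2-fold, without traditional control replicate 5, and by 0.30 ± 0.43 (adjusted p = 0.534) in DCHP libraries, which did not pass. Its Sm site was spanned by 78.1% ± 6.04 and 76.6% ± 14.1 of reads on Rnu11 in PANDORA-seq and by 37.8% ± 8.58 and 41.1% ± 8.49 in traditional libraries. The 27-nt fragment of bases 85 to 111 was at 0.0755 to 2.18 RPM in PANDORA-seq libraries and at no more than 0.279 RPM in any traditional library.

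U4atac, the counterpart of U4 for rare introns, was read mainly at its 3′ end. Its commonest length was 38 nt in all 4 groups, at 19.1% to 23.9% of reads, and the fragments ran from bases 87 to 89 to the annotated 3′ end at base 125. Reads reaching the last 3 bases made up 67.8% ± 13.1 and 66.2% ± 10.6 in PANDORA-seq and 76.7% ± 9.77 and 80.6% ± 6.66 in traditional libraries. The difference was −14.3 ± 5.42 percentage points in DCHP libraries (limma, adjusted p = 0.0817), lost under the replicate block (adjusted p = 0.103), by the exact permutation test (adjusted p = 0.1004) and without any 1 of PANDORA-seq DCHP replicates 2 to 5 and traditional DCHP replicates 1, 3, 4 and 5 (adjusted p = 0.101 to 0.162). It was −8.88 ± 7.33 in control libraries (adjusted p = 0.475). Its level was lower in PANDORA-seq by 1.02 ± 0.33 and 1.06 ± 0.32 (log2; edgeR, adjusted p = 0.0158 and 0.00875) in control and DCHP libraries. The control difference was −0.98 under the block, no longer over 2-fold, and −0.86 to −0.99 without any 1 of PANDORA-seq control replicates 1, 2 and 3 and traditional control replicates 1 and 5. The DCHP difference was −0.88 without PANDORA-seq DCHP replicate 3 and −0.99 without traditional DCHP replicate 1. Both were under 2-fold with exact matches (−0.94 and −0.95) and with reads of at least 20 nt (−0.89 and −0.86), the control one was near 0 with TMM (−0.06) or DESeq2 factors (−0.05), and both turned positive with total miRNA reads, the DCHP one also with TMM or DESeq2 factors. U6atac (0.390 ± 0.0904 to 4.30 ± 1.17 RPM), U7 (0.198 ± 0.0973 to 1.62 ± 0.395 RPM) and the unclassified gene (0.0738 ± 0.0480 to 0.671 ± 0.276 RPM) stood near the opposite-strand level, and in traditional libraries 91.3% ± 7.93 and 85.2% ± 9.52 of U6atac reads were 15 to 19 nt long. No fragment pattern is given for them.

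**Figure D4:**
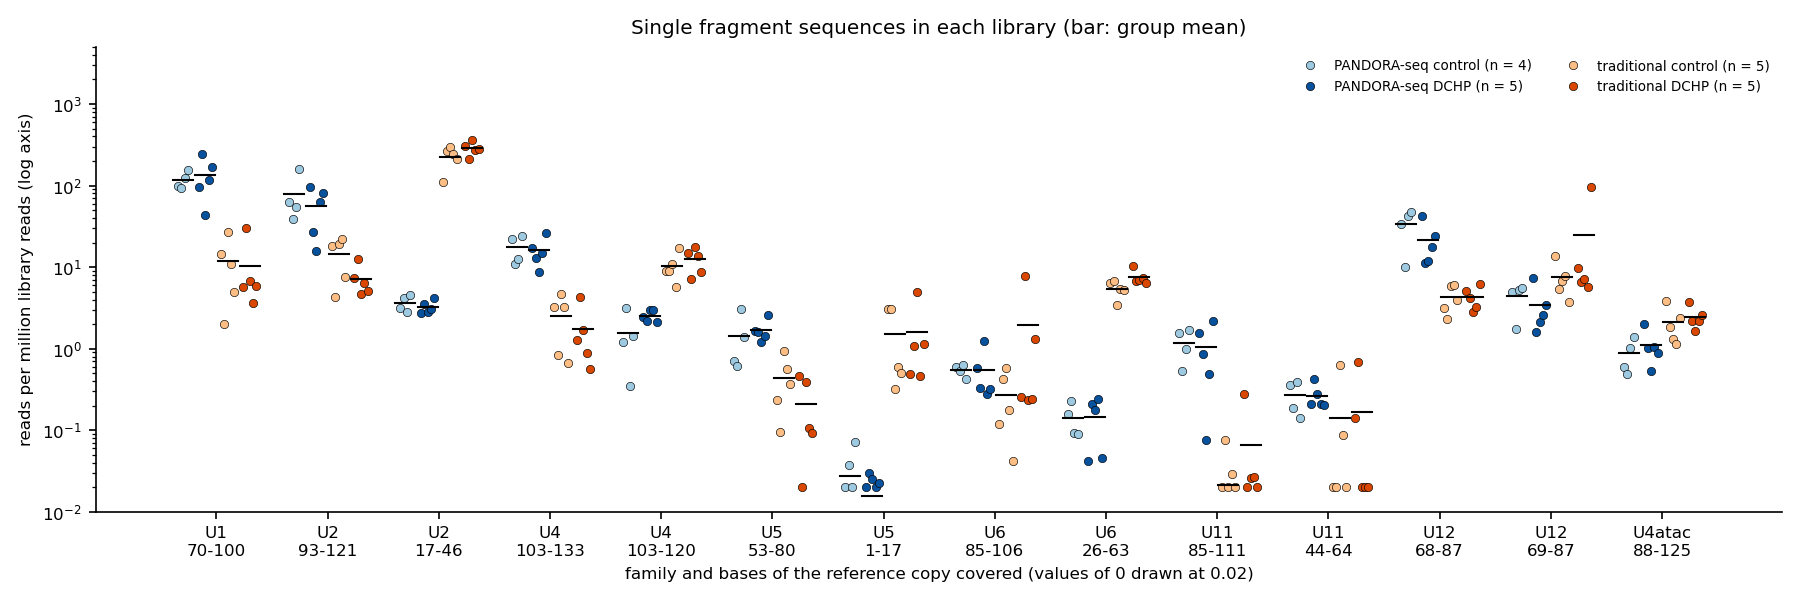
Level (RPM) of the leading fragment of each method in 8 families, one point per library on a log axis, named by family and bases covered, with a bar at each group mean and values of 0 drawn at 0.02 RPM. The U2 fragment of bases 17 to 46 is at 109 to 358 RPM in traditional and at 2.77 to 4.58 RPM in PANDORA-seq libraries, and traditional DCHP replicate 5 stands alone for U12 bases 69 to 87 at 96.1 RPM.

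Read length differed between methods in most families. Of the 8 families with enough reads in every library for a fit (at least 20), 6 had longer reads in PANDORA-seq and 1, U6, had shorter ones, in control and in DCHP libraries alike. These counts are near the background, where 70.7% and 70.8% of all 389 and 411 features tested were longer in PANDORA-seq and 78.4% and 76.4% differed in either direction, and the shorter U6 stands against 7.71% and 5.6%. The mean U1 read was 30.9, 30.9, 30.8 and 30.7 nt long in PANDORA-seq control and 30.3 to 32.3 nt in PANDORA-seq DCHP libraries, and 26.5 to 27.2 nt and 25.7 to 28.6 nt in traditional libraries. The difference was 4.06 ± 0.18 nt in control (limma, adjusted p = 1.13e-07) and 3.99 ± 0.57 nt in DCHP libraries (adjusted p = 0.00016). All features tested had medians of 3.82 and 4.08 nt.

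For U2 the difference was 3.82 ± 0.78 and 6.09 ± 0.49 nt, for U4 3.19 ± 0.61 and 3.83 ± 0.95 nt, for U5 1.75 ± 0.65 and 2.95 ± 0.83 nt, for U11 3.04 ± 0.81 and 3.93 ± 0.75 nt and for U4atac 1.52 ± 0.72 and 2.15 ± 0.66 nt (limma, adjusted p between 2.78e-06 and 0.0854). U4atac in control libraries passed least clearly and did not pass by an exact permutation test (adjusted p = 0.1165) or without any 1 of PANDORA-seq control replicates 1, 3 and 4 and traditional control replicates 2, 3 and 4 (adjusted p = 0.1029 to 0.2148). U6 reads were shorter in PANDORA-seq, by 5.38 ± 0.83 nt in control (adjusted p = 0.000381) and by 4.06 ± 0.78 nt in DCHP libraries (adjusted p = 0.000999). The commonest U6 read length was 15 nt in PANDORA-seq control (10.95%) and DCHP libraries (10.09%), and 37 nt in traditional libraries. Over all lengths the PANDORA-seq U6 level was close to the opposite-strand one, though not at 20 nt and longer. The part of short background matches in the U6 length difference was not tested. U12 differed by −1.04 ± 0.63 and 1.18 ± 1.40 nt, and neither passed, but without PANDORA-seq control replicate 2 the control difference was −1.56 nt and passed (adjusted p = 0.0369). The U5 control difference did not pass without the same library (adjusted p = 0.1029). The U12 DCHP difference includes traditional DCHP replicate 5, where the mean U12 read was 19.7 nt, with the others of its group between 24.7 and 26.4 nt. Reads of 15 to 19 nt made up 3.04% ± 0.558 and 3.42% ± 1.24 of U1 reads in PANDORA-seq and 22.4% ± 4.68 and 20.7% ± 4.90 in traditional libraries.

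**Figure D5:**
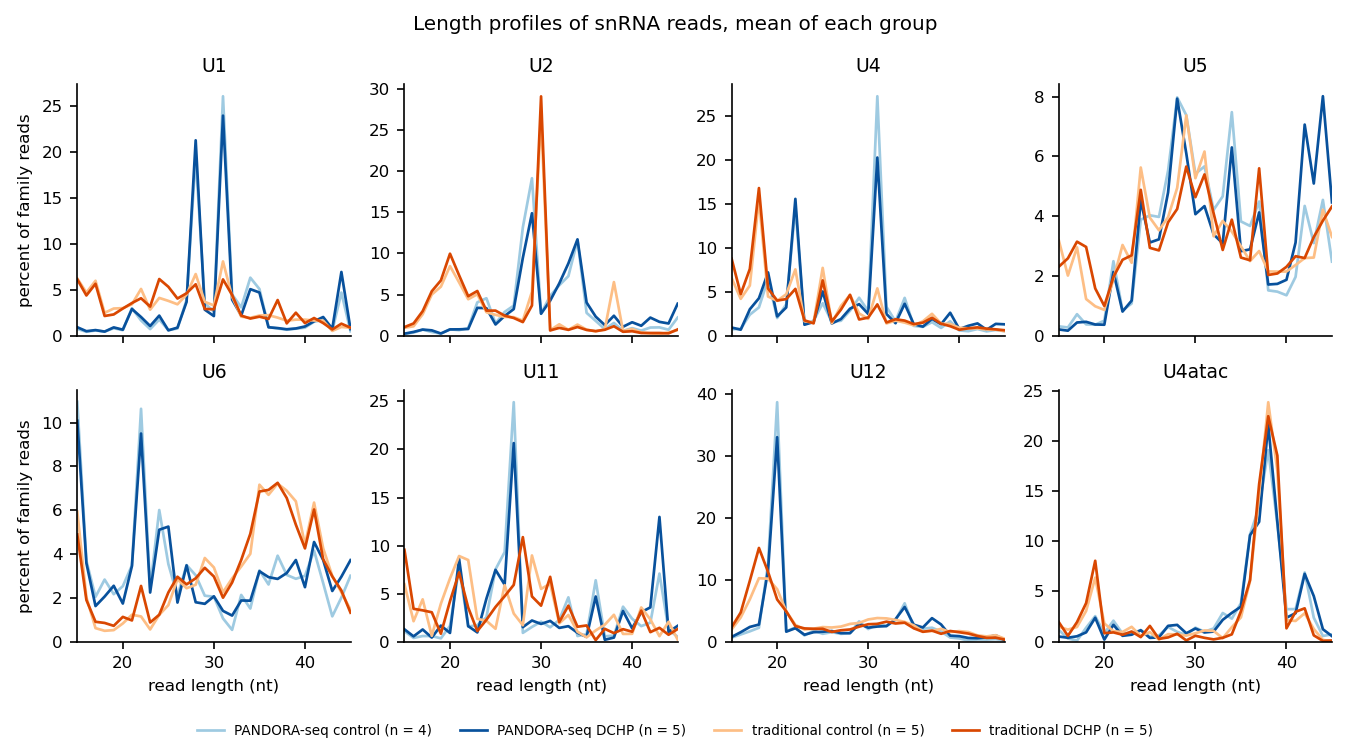
Share of family reads at each length from 15 to 45 nt, as the mean of each group. PANDORA-seq profiles have sharp peaks at 31 nt for U1 and U4 and at 20 nt for U12, traditional profiles peak at 30 nt for U2 and 18 nt for U4, and the U4atac peak at 38 nt is common to all groups.

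The ends of the annotated RNAs gave few differences. Of 8 families tested for the 5′ start share, 0 passed in control libraries (limma; 1 had an unadjusted p under 0.05, 1 passed by the exact permutation test and 1 with the replicate block) and 2, U1 and U5, in DCHP libraries, both lower in PANDORA-seq, beside 38.4% and 42.3% of all features tested. For the 3′ end share, 2 of 8 passed in control libraries by limma (U6 higher, U4 lower) and 4 in DCHP libraries (U6 higher, and U1, U4 and U4atac lower), beside 33.4% and 36.9%.

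The base in front of a fragment differed too for U1, U12 and U11. In PANDORA-seq, 94.9% ± 1.23 and 95.2% ± 1.42 of U1 reads on Rnu1a1 started after a T or C, against 67.6% ± 7.07 and 67.4% ± 4.96 in traditional libraries. T and C make up 51.8% of that copy. For U12 the shares were 79.5% ± 3.41 and 75.4% ± 1.74 against 39.6% ± 4.59 and 32.1% ± 11.5, and for U11 79.4% ± 6.61 and 78.3% ± 9.88 against 42.3% ± 4.60 and 45.4% ± 8.26. U2 went against this pattern, with 71.8% ± 6.72 and 65.0% ± 7.57 in PANDORA-seq and 74.6% ± 5.19 and 72.1% ± 4.10 in traditional libraries. Starts at the A of a TA or CA step, however, were more frequent in PANDORA-seq for U2 as well: 67.8% ± 7.40 and 60.1% ± 7.81 against 35.3% ± 9.65 and 29.3% ± 6.30, where such steps are 12.6% of all steps in Rnu2-10. These shares rest on a few recurrent starts per family and were not tested. The shares of U4, U5, U6 and U4atac are not given here. U4atac reads started most often at base 88, after a G, in all 4 groups (21.9% to 26.8% of reads on Gm22710).

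Family levels between methods can be summarised by counts. In control libraries, 2 of 11 families (U1 and U11) were higher in PANDORA-seq and 6 were lower (U5, U6, U4atac, U6atac, U7 and the unclassified gene). U7 and the unclassified gene had at most 13.5 and 10 reads in any PANDORA-seq library and reached the filter through the traditional libraries, so their calls are no support in either exposure. U6atac stood near the opposite-strand level, and 69.1% and 65.9% of its traditional control and DCHP reads were 15 nt long. Its calls are therefore no firm support either. Among all features tested, 12.7% were higher and 59.9% lower with total reads as library size, and 41.8% and 27% with total miRNA reads. With total miRNA reads the control differences of U2, U4, U5, U12 and U4atac turned positive, and U4 was called higher. In DCHP libraries, 0 of the 11 families were higher by edgeR with total reads as library size, with U1 at 0.85 (adjusted p = 0.0888). U1 and U11 were called higher there with TMM (2.03 and 1.54), with total miRNA reads (3.32 and 2.82) and by DESeq2 (2.28 and 1.73). By DESeq2 U4 was called higher too (1.09), and with total miRNA reads U2 (1.54), U4 (2.15), U5 (1.70) and U4atac (1.44) were. With total reads as library size, 6 families were lower in DCHP libraries (U6, U12, U4atac, U6atac, U7 and the unclassified gene), beside 10.5% higher and 66.2% lower of all features. Among the 296 genes, 16 were higher and 221 lower in control libraries (background 11.4% and 62.1% of 1588 genes), and 14 were higher and 235 lower in DCHP libraries (background 9.89% and 67.6%). The 196 genes that reached 10 reads only in traditional libraries bear on these counts, so they support nothing by themselves. The median of all features moved from −1.61 and −2.06 with total reads to 0.77 and 0.47 with total miRNA reads as library size. The log2 values of U1 and U11 were positive under every scaling tried, but with total reads neither was called in DCHP libraries. The U6 value was negative under all but one: it turned to 3.49 and 3.31 with reads on hairpins of mainly miRNA-sized reads.

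RNAs related to snRNAs gave the context. Guides that modify snRNAs (scaRNAs, 24 tested of 51) were higher in 2 and lower in 16 cases in PANDORA-seq control libraries, with a median of −2.37 on the log2 scale, beside 12.7% higher, 59.9% lower and a median of −1.61 over all features. In DCHP libraries 1 was higher and 17 lower, with a median of −2.44, beside 10.5%, 66.2% and −2.06. Box C/D snoRNAs (81 tested of 98) had 22 higher and 15 lower (median 0.16) in control and 23 higher and 27 lower (median −0.37) in DCHP libraries. The transcription regulator 7SK was at 0.96 and 1.39, the latter past the threshold, and of the 2 Y RNAs 1 was lower in each exposure.

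The exposure comparison asks whether DCHP changed these fragments, within each method. No family passed in either method. In PANDORA-seq, 0 of 11 families were called by edgeR, and 0 had an unadjusted p under 0.05, beside 47 of 1228 features; DESeq2 called 0. In traditional RNA-seq, 0 of 11 were called and 0 had an unadjusted p under 0.05, beside 107 of 1228 features. The background of calls was 0% in both. No family was called for a different exposure effect between methods (interaction term, 0 of 11, beside 0 of all 1228 features). U6atac, U7 and the unclassified gene, near the opposite-strand level, are left out of the following ranking. Among the other families the widest differences were U5 in PANDORA-seq, at 0.54 ± 0.27 (log2, DCHP over control; adjusted p = 1), and U12 in traditional RNA-seq, at 0.85 ± 0.52 (adjusted p = 0.623). The latter fell to 0.06 without traditional DCHP replicate 5. U6 in traditional RNA-seq was at 0.55 ± 0.28 and U11 at 0.81 ± 0.43 (adjusted p = 0.623 for both), beside a median of 0.27 over all features.

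Single genes and fragments gave the same counts. Of the 296 genes, 0 were called in either method by edgeR, beside 0 of all 1588 genes tested. In PANDORA-seq 3 genes had an unadjusted p under 0.05 and in the traditional libraries 14 had one, or 1.01% and 4.73%, beside 3.65% and 8.31% of all 1588 genes. Of 103 snRNA sequences among the 20000 most abundant in PANDORA-seq, 0 were called and 5 had an unadjusted p under 0.05 (4.85%, beside 5.24% of all 20000 sequences). Of 138 in traditional RNA-seq, 0 were called and 20 had an unadjusted p under 0.05 (14.5%, beside 7.38% of all 20000 sequences), and DESeq2 called 1. By edgeR, 0 of all 20000 sequences were called in either method. Such sequences include nested fragments of the same RNA, so their p-values are not independent and these shares are only descriptive. Mean lengths, 5′ start shares and 3′ end shares had 0 calls between exposures in both methods, by limma, where the background for length was 0.236% of 424 features in PANDORA-seq and 0.164% of 609 in traditional libraries. The background was 0% of 310 and 439 features for 5′ start shares and 0% of 306 and 461 for 3′ end shares. An unadjusted p under 0.05 was reached once, for a length in PANDORA-seq. That was U2, whose reads were 30.4 ± 0.681 nt long in control and 31.6 ± 0.658 nt in DCHP libraries, a difference of 1.25 ± 0.43 nt (adjusted p = 0.941).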

How the data were processed

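The authors deposited, for each library, the counts of cleaned reads per distinct sequence (15 to 45 nt). The study's methods name SPORTS with the setting -M 1 for annotation. The adapter and quality settings of the cleaning are not given in the sources used here. Control status was taken from the titles, since the treatment label reads DCHP throughout. The sources used here differ on the order of the enzyme steps, and the study's methods give AlkB before T4PNK.

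Reads were matched to the sense sequence, allowing 1 mismatch, of small RNA genes of GENCODE M21, first to 2198 miRNA hairpins, then rRNA, tRNA and other small RNA genes, among them 1383 snRNA genes. The opposite strand of the snRNA genes came last, for reads that matched no sense gene, which can lower the opposite-strand level. Reads fitting several genes were divided equally among those with the fewest mismatches. Only 10 of 408 nuclear tRNA loci had a sequence here, and 45S and 28S rRNA were not used. U1, U2, U4, U5, U6 and the minor families were set by gene name or by blastn 2.17.0 similarity. Replicates differed by more than sampling noise in all 36 pairs within groups (lowest chi-square per degree of freedom 88.4).

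Levels were tested with edgeR 4.0.16 (quasi-likelihood test, total reads as library size, R 4.3.3) over all features with at least 10 reads in at least 4 libraries, and called at an adjusted p under 0.1 and a fold over 2. Read lengths and end shares (first or last 3 bases) were tested with limma 3.58.1 over features with at least 20 reads in every library, at an adjusted p under 0.1. Shares of reads that hold an end or span a marked stretch were taken over the reads on the reference copy of a family. P-values were adjusted by Benjamini-Hochberg. Alternatives were DESeq2 1.42.0, TMM, library sizes from miRNA reads, other read filters, the replicate number as a block, and leaving out each library. The fits were tested on simulated data.

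Same-numbered libraries of the 2 methods deviated together (r = 0.216 to 0.449 over 4 pairs in control and 0.110 to 0.424 over 5 pairs in DCHP libraries), so the blocked value, or the blocked count of calls, is given where it changed a call. Members and lists were chosen with earlier results of these data known. The text draws its names from every family, the 2 genes with the most reads in each major family, the 3 leading fragments per family and method, and up to 10 called genes per comparison with the smallest p, of which examples are given. Fragments also matching copies on a chromosome not shown here are described without sequence. In PANDORA-seq the totals of U6atac, U7 and the unclassified gene rest on at most 20 reads a library and U6 ends on 171 to 603, which limits their precision.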

Additional observations from a re-analysis of the deposited data

Results flagged for a closer look

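Of 64 group values checked for a single library far from the others, 4 were flagged, where chance flags about 1 in 20 groups. The mean U2 read length was 29.3 nt in traditional control replicate 5, with the others between 25.7 and 26.2 nt. The same library had a mean U5 read length of 32.2 nt, with the others between 29.6 and 30.3 nt. U12 was at 676 RPM in traditional DCHP replicate 5, with the others between 115 and 164 RPM, and its mean U12 read length was 19.7 nt, with the others between 24.7 and 26.4 nt.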

How the results depend on the processing

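Level comparisons between methods depended on the library size. The median of all features moved from −1.61 (control) and −2.06 (DCHP) to 0.77 and 0.47 with total miRNA reads, 5.43 and 4.94 with narrow miRNA reads (hairpins with mainly 20 to 24 nt reads), −0.70 and −0.80 with TMM, and −0.69 and −0.62 with DESeq2. The shares called higher and lower moved from 12.7% and 59.9% to 41.8% and 27% with total miRNA reads, 81.2% and 1.63% with narrow miRNA reads and 24.8% and 43.9% with TMM in control libraries. In DCHP libraries they moved from 10.5% and 66.2% to 42.4% and 31.1%, 78.7% and 0.489%, and 24% and 47%. In control libraries the log2 difference reversed for U12 (1.54 with total miRNA, 6.38 narrow miRNA, 0.27 TMM, 0.29 DESeq2), U2 (1.76, 6.47, 0.39, 0.39), U4 (1.69, 6.53, 0.37, 0.43), U4atac (1.26, 6.01 with the miRNA sizes), U5 (1.23, 5.92) and U6 (3.49, narrow only). In DCHP libraries it reversed for U12 (0.88, 5.34), U2 (1.54, 6.05, 0.21, 0.38), U4 (2.15, 6.56, 0.85, 1.09, and 0.27 with reads of at least 20 nt), U4atac (1.44, 6.01, 0.12, 0.31), U5 (1.70, 6.21, 0.42, 0.64) and U6 (3.31, narrow only). The cause was not tested beyond these settings.

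Of 8 families called between methods in control libraries, 4 were called with exact matches and 4 with reads of at least 20 nt, and 5 without traditional control replicate 5; 11 were called with narrow miRNA reads in DCHP libraries, against 6. Leaving out 1 library gave 5 to 8 families in either exposure, 234 to 241 genes in control and 242 to 252 in DCHP libraries, and 6 to 7 and 7 families for length. For 5′ shares it gave 0 to 1 in control and 1 to 2 in DCHP libraries, and for 3′ shares 1 to 3 (1 without PANDORA-seq control replicate 3 or 4) and 3 to 4. The 5′ share count in control libraries was 1 by the exact permutation test and 1 with the replicate block, against 0, and in DCHP libraries 1 with exact matches and 0 with the block, against 2. The 3′ share count in control libraries was 1 with the block, against 2. The exposure comparisons stayed at 0 in all leave-one-out fits, and DESeq2 called 1 snRNA sequence in traditional RNA-seq. Within a method the replicate numbers did not pair the samples (r from −0.347 to 0.113), and the block gave 0 snRNA calls. Families near the 2-fold limit, U1 and U4atac above all, are the least firm.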
